A study of Mus musculus with 8 samples.

Results

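The second heart field transcription factors are 8 nuclear regulators that were picked by name: *Isl1*, *Osr1*, *Six2*, *Eya1*, *Foxc1*, *Foxc2*, *Foxf1* and *Tshz2*. They are 8 of the 49315 genes listed for each library, and all 8 remained among the 17163 genes with enough counts to be tested. Messenger RNA was measured by bulk RNA-seq in whole mouse hearts at embryonic day 9.5, in 4 wild-type libraries and 4 libraries from embryos homozygous for Tbx20EH1Mut. Each library held the poly-A RNA of 3 pooled hearts, so variation between single embryos cannot be seen. The Tbx20EH1Mut allele is a germline CRISPR/Cas9 edit, in lines back-crossed to C57BL/6J, that replaces neighbouring amino acids in the EH1 domain of Tbx20. This domain is where the T-box factor Tbx20 binds corepressors of the TLE family. Because the edit is in the germline, every cell that makes Tbx20 carries it, in the heart and elsewhere. The comparison asks which of the 8 factors differ in heart tissue when Tbx20 cannot recruit TLE proteins.

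The second heart field is a pool of mesodermal progenitors behind and beside the early heart tube, and its cells join the tube at the outflow and the inflow pole. Progenitors express factors such as Isl1 while they proliferate, and most of them lose these factors as they become heart muscle. An anterior part, marked by *Fgf8*, *Fgf10* and *Tbx1*, contributes outflow tract and right ventricle, and a posterior part, marked by *Osr1*, *Hoxb1* and *Aldh1a2*, contributes atria and the septum between them. None of the 8 factors belongs to the heart field alone. *Isl1* is also made in motor neurons and foregut endoderm, *Six2* and *Eya1* in kidney mesenchyme and the pharyngeal region, *Foxc1* and *Foxc2* in somites and endothelium, and *Foxf1* in the mesenchyme around the gut and lung.

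The 8 genes lie on 6 chromosomes, given here on GRCm38. *Isl1* (ENSMUSG00000042258) is at chr13:116298281-116309689 on the minus strand, and *Foxc1* (ENSMUSG00000050295) is at chr13:31806691-31810643 on the plus strand. *Osr1* (ENSMUSG00000048387) is at chr12:9574442-9581499, plus strand, *Six2* (ENSMUSG00000024134) at chr17:85684277-85688274, minus strand, and *Eya1* (ENSMUSG00000025932) at chr1:14168954-14310235, minus strand. *Tshz2* (ENSMUSG00000047907) is at chr2:169633013-170071816, plus strand. *Foxf1* (ENSMUSG00000042812, chr8:121084386-121088144) and *Foxc2* (ENSMUSG00000046714, chr8:121116171-121118895) are neighbours on the plus strand, 28027 bases apart. *Foxc1* and *Foxc2* have 1 exon each, and the other 6 genes are spliced.

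RefSeq promoters (GRCm38.p6) were matched for 4 of the 8 genes, and the 250 bases before the start site are shown for 3 of them. *Isl1* and *Tshz2* had the largest called changes, and *Six2* held a motif match. The windows are chr13:116309689-116309938 on the minus strand for *Isl1*, chr2:169632259-169632508 on the plus strand for *Tshz2* and chr17:85688255-85688504 on the minus strand for *Six2*, each written 5′ to 3′ on the strand of its gene. Capitals mark a match to any of the 4 motifs searched.
Isl1: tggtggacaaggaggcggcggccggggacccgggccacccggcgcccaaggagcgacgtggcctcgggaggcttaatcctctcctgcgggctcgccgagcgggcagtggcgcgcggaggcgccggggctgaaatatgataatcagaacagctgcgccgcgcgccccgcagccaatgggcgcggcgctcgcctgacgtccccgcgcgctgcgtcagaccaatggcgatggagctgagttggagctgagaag
Tshz2: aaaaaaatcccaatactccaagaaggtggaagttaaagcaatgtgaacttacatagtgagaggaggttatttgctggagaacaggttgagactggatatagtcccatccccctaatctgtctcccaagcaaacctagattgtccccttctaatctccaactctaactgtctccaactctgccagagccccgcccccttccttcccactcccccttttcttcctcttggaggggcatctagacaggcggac
Six2: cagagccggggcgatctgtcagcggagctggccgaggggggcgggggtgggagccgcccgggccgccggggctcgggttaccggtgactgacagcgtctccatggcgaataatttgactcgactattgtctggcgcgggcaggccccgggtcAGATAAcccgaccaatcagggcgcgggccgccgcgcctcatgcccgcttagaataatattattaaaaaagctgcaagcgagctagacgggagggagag
The motifs were searched on both strands as AGGTGT for a T-box site, TGTTTAC for forkhead factors, TCAGGTT for relatives of Six2 and AGATAA for GATA factors. The T-box letters occur in 11.8% of 32851 promoters of this length, the forkhead letters in 3.17%, the Six2-type letters in 3.49% and the GATA letters in 9.99%. The GATA letters of the *Six2* window, which begin 98 bases before the start site, were the only match in the windows of *Isl1*, *Tshz2*, *Six2* and *Foxc1*. G and C made up 71.2% of the *Isl1* window, 70.8% of that of *Foxc1* and 64.8% of that of *Six2*. The *Tshz2* window was poorer in G and C, at 48.8%, against a median of 52.4% over all promoters.

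Between 33359322 and 49523086 reads were counted on genes in each wild-type library, and between 36250675 and 38357025 in each Tbx20EH1Mut library. *Tbx20* itself was at 368 ± 11.1 CPM (counts relative to the scaled library size, mean ± SD, n = 4) in wild-type libraries. In Tbx20EH1Mut libraries it was at 267 ± 44.9 CPM, without overlap. Its log2 fold change of -0.46 (edgeR adjusted p = 0.0273) was too small to be called by the rule given below. Counts per gene cannot show the edited codons. The genotypes are therefore taken from the sample labels. All 8 markers of heart muscle were counted in every library, with summed levels of 28030 to 33780 CPM in wild-type and 27150 to 38570 CPM in Tbx20EH1Mut hearts. Libraries also differed in RNA of other tissues. All 8 markers of foregut epithelium were counted in every library, and their sum was 58.3 to 133 CPM in wild-type and 226 to 449 CPM in Tbx20EH1Mut libraries, without overlap. Most of this sum was the keratin gene *Krt18*. The other 7 markers summed to 1.12 to 54.9 CPM in wild-type and 30.6 to 191 CPM in Tbx20EH1Mut libraries and overlapped, as 6 of the 8 markers did singly. Wild-type replicate 2 and Tbx20EH1Mut replicate 1 had the highest foregut sum of their genotype, and where leaving out either or both changed the call of a factor, or ended the call of a listed progenitor or partner gene, both values are given.

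In Tbx20EH1Mut hearts, 6 of the 8 factors were higher than in wild-type hearts, none was called lower, and *Six2* and *Eya1* did not pass the test. Genes were called where the adjusted p of edgeR's quasi-likelihood test was below 0.05 and the absolute log2 fold change was above 0.5. By this rule 12.5% of all tested genes were called higher and 12.1% lower, 24.6% in all. The log2 fold changes of the 8 factors ran from 0.83 for *Foxc2* to 3.40 for *Tshz2*, with a median of 1.99 against 0.00 over all tested genes. For 6 of the 8 factors, every Tbx20EH1Mut library lay above every wild-type library, an arrangement found in 14.7% of tested genes, or 30.5% when either genotype may be the higher. With the fold threshold raised to log2 1, calls of a rise were left for 4 of the 8 factors and for 6.67% of all genes. In whole-heart RNA, more cells of a kind and more message per cell cannot be told apart. Values per library are listed in the order of replicates 1 to 4.

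**Figure D1:**
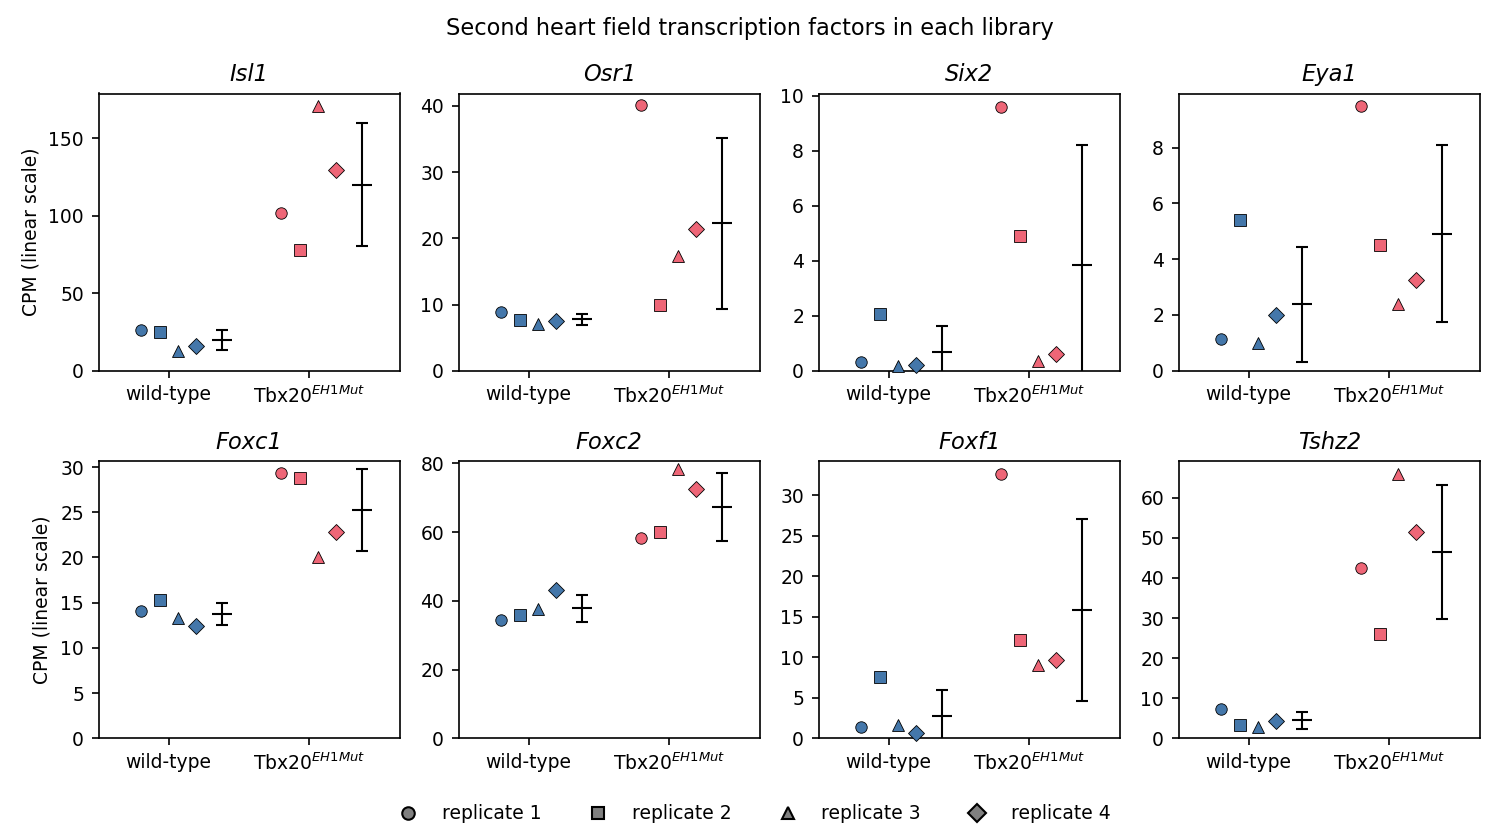
CPM of each of the 8 factors in the 4 wild-type and 4 Tbx20EH1Mut libraries, with 1 point per library whose shape gives the replicate number, and a line and bar for mean ± SD (bars are cut at 0). The Tbx20EH1Mut points of *Isl1* (77.9 to 171) and *Tshz2* (26.1 to 66.0) all lie above the wild-type points, whereas those of *Six2* and *Eya1* overlap them.

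*Isl1* encodes a LIM homeodomain factor that second heart field progenitors need to proliferate and to enter the heart tube. Its levels were 26.1, 24.7, 12.5 and 15.9 CPM in the wild-type libraries. In the Tbx20EH1Mut libraries they were 102, 77.9, 171 and 129 CPM. The lowest Tbx20EH1Mut library was well above the highest wild-type library. Means were 19.8 ± 6.67 and 120.0 ± 39.9 CPM (SD, n = 4 each), a ratio of 6.06. The log2 fold change was 2.60 ± 0.296 (standard error, edgeR adjusted p = 3.78e-04). It stayed between 2.39 and 2.76 when any 1 library was left out, with an adjusted p of at most 0.00268 in edgeR. With the level of foregut markers as a covariate it was 2.73 (edgeR adjusted p = 9.64e-04). Of 6 neural tube and motor neuron markers, the neural progenitor gene *Pax6* was called higher (1.75, edgeR adjusted p = 0.00307) and the motor neuron gene *Lhx3* lower (-1.41, adjusted p = 0.0440). The other 4 had too few counts to be tested, with at most 13 counts of *Mnx1* and 2 of *Olig2* in any library. The sum of the 6 was 2.85 to 5.07 CPM in wild-type and 5.63 to 9.57 CPM in Tbx20EH1Mut libraries, and without *Pax6* it was 1.18 to 2.10 and 0.265 to 1.25 CPM. Their part in the result was not tested.

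The zinc finger genes were *Osr1*, a marker of posterior progenitors and of intermediate mesoderm, and *Tshz2*, a member of the teashirt family of homeodomain and zinc finger factors. *Tshz2* had the largest rise of the 8. It was at 7.40, 3.38, 2.75 and 4.30 CPM in the wild-type libraries and at 42.4, 26.1, 66.0 and 51.6 CPM in the Tbx20EH1Mut libraries. No Tbx20EH1Mut library came near the wild-type range. Means were 4.46 ± 2.07 and 46.5 ± 16.7 CPM (SD, n = 4 each), a ratio of 10.4, and the log2 fold change was 3.40 ± 0.361 (standard error, edgeR adjusted p = 2.65e-04). The estimate was 3.18 to 3.74 without any 1 library and 4.09 with the foregut covariate, and it passed the test each time. *Tshz2* shares 5076 exon bases, 65.2% of its total, with the predicted gene *Gm26883* on the opposite strand, and the strand setting of the counting is not given in the sources used here. Over the 8 libraries *Gm26883* had 12 counts and *Tshz2* 7424.

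*Osr1* was at 8.89, 7.62, 7.05 and 7.46 CPM in the wild-type libraries, a narrow range. In the Tbx20EH1Mut libraries it was at 40.2, 9.98, 17.3 and 21.4 CPM, so that replicate 1 stood highest and replicate 2 only just cleared the wild-type libraries. Means were 7.76 ± 0.794 and 22.2 ± 12.9 CPM (SD, n = 4 each). The log2 fold change was 1.52 ± 0.348 (standard error, edgeR adjusted p = 0.0106). Without Tbx20EH1Mut replicate 1 it was 1.08, still called. With the foregut level as a covariate it was 1.14 and no longer called (edgeR adjusted p = 0.155). The 5 markers of intermediate mesoderm, where *Osr1* is also made, summed to 28.8 to 66.5 CPM in wild-type and 36.9 to 50.1 CPM in Tbx20EH1Mut libraries, almost all of it *Sall1*. The other 4 summed to 0.668 to 5.44 and 3.03 to 6.09 CPM. None of the 5 was called, their median log2 fold change was 0.95, and their part in the result was not tested.

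The 3 forkhead genes were all called higher. *Foxc1* and *Foxc2*, close relatives that act together in outflow tract, pharyngeal arch artery and somite development, had smaller changes that varied little between libraries. *Foxc1* was at 14.1, 15.3, 13.2 and 12.4 CPM in the wild-type libraries and at 29.4, 28.8, 20.1 and 22.9 CPM in the Tbx20EH1Mut libraries. The genotypes did not overlap. Its log2 fold change was 0.88 ± 0.149 (standard error, n = 4 each, edgeR adjusted p = 0.00280), and 0.81 to 0.98 without any 1 library. With the foregut covariate it fell to 0.52 and lost its call (edgeR adjusted p = 0.0837).

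*Foxc2* had 34.6, 35.8, 37.7 and 43.3 CPM in the wild-type libraries and 58.4, 59.9, 78.5 and 72.5 CPM in the Tbx20EH1Mut libraries, again without overlap. Means were 37.8 ± 3.85 and 67.3 ± 9.77 CPM (SD, n = 4 each), and the log2 fold change was 0.83 ± 0.129 (standard error, edgeR adjusted p = 0.00180). It was 1.02 with the foregut covariate (edgeR adjusted p = 0.00248). Endothelial markers, whose cells also make *Foxc1* and *Foxc2*, summed to 430 to 584 CPM in wild-type and 553 to 624 CPM in Tbx20EH1Mut libraries. Of the 6, 3 were called higher, and the 3 not called had estimates from -0.13 to -0.42. Without the most abundant marker the sum was 349 to 442 CPM in wild-type and 383 to 438 CPM in Tbx20EH1Mut libraries. The part of endothelial cells in the forkhead result was not tested.

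*Foxf1* is a Hedgehog-responsive factor of splanchnic mesoderm and gut and lung mesenchyme. It was at 1.34, 7.52, 1.69 and 0.698 CPM in the wild-type libraries and at 32.6, 12.1, 9.06 and 9.65 CPM in the Tbx20EH1Mut libraries. The genotypes did not overlap, but 1 library of each stood above the other three. The log2 fold change was 2.49 ± 0.710 (standard error, n = 4 each, edgeR adjusted p = 0.0266). The call was lost without wild-type replicate 3 (2.29, edgeR adjusted p = 0.0777), without wild-type replicate 4 (2.15, adjusted p = 0.0601) and without Tbx20EH1Mut replicate 1 (1.87, adjusted p = 0.0742). Without wild-type replicate 2 it was 3.68, and without both wild-type replicate 2 and Tbx20EH1Mut replicate 1 it was 3.06 (edgeR adjusted p = 0.00196). With the foregut covariate it was 0.63 and not called (edgeR adjusted p = 0.484). Of 5 gut and lung mesenchyme markers, *Wnt2* was called lower (-1.63) and *Barx1* higher (1.05, edgeR adjusted p = 0.0309). Their sum, of which *Wnt2* was the most abundant, was 62.3 to 88.7 CPM in wild-type and 36.4 to 48.9 CPM in Tbx20EH1Mut libraries. Without *Wnt2* it was 6.22 to 11.1 and 7.22 to 28.5 CPM, and the part of these cells in the result was not tested.

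*Six2* and *Eya1* belong to 1 regulatory module, in which the homeodomain protein Six2 binds DNA and the coactivator Eya1 lends it transcriptional activity. *Six2* was nearly silent in most libraries, with 11, 102, 8 and 9 counts in the wild-type libraries and 370, 185, 11 and 23 counts in the Tbx20EH1Mut libraries. In CPM these were 0.334, 2.08, 0.159 and 0.196 in wild-type and 9.58, 4.91, 0.344 and 0.610 in Tbx20EH1Mut libraries. Wild-type replicate 2 was above Tbx20EH1Mut replicates 3 and 4, so the genotypes overlapped. The log2 fold change of 2.46 ± 1.09 (standard error, n = 4 each) did not pass the test (edgeR adjusted p = 0.112). It passed without wild-type replicate 2 (4.10, edgeR adjusted p = 0.0323) and was 1.5 without Tbx20EH1Mut replicate 1. With both left out it was 3.12 (edgeR adjusted p = 0.0663).

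*Eya1* was at 1.12, 5.42, 0.996 and 1.99 CPM in the wild-type libraries and at 9.48, 4.51, 2.41 and 3.26 CPM in the Tbx20EH1Mut libraries. Wild-type replicate 2 was exceeded only by Tbx20EH1Mut replicate 1. The log2 fold change was 1.04 ± 0.586 (standard error, n = 4 each, edgeR adjusted p = 0.20), not called. It was 1.86 without wild-type replicate 2 (edgeR adjusted p = 0.0268), 0.52 without Tbx20EH1Mut replicate 1, and 1.33 with both left out (edgeR adjusted p = 0.0447). With the foregut level as a covariate, the estimates for *Six2* (-1.79) and *Eya1* (-1.07) changed sign and neither passed the test (edgeR adjusted p = 0.207 and 0.0568).

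**Figure D2:**
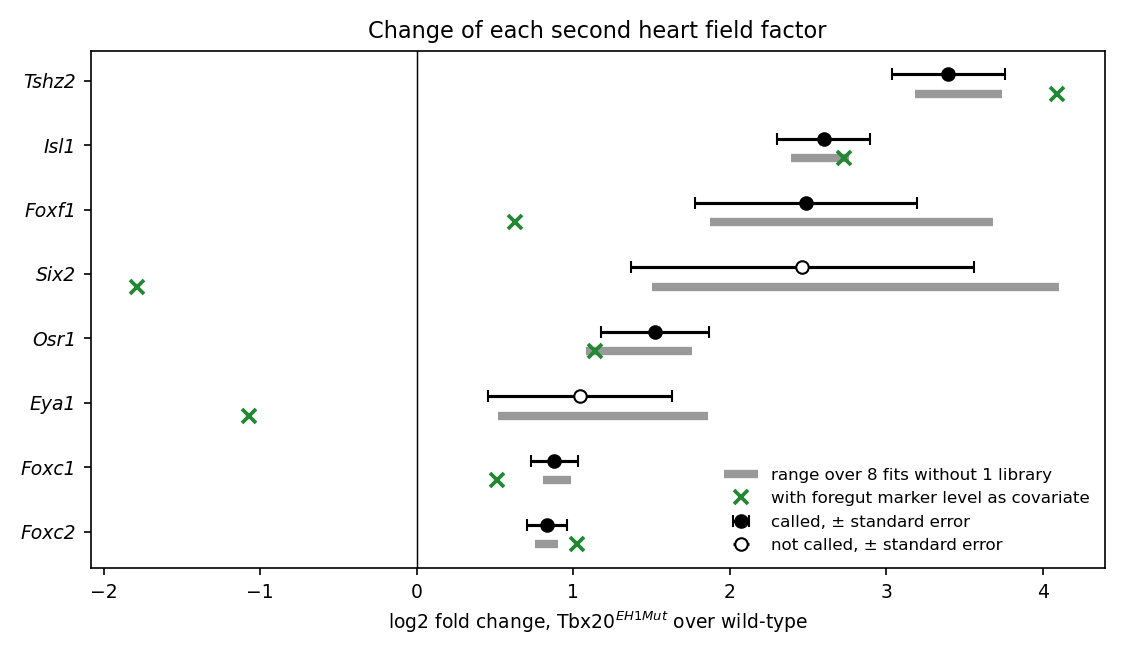
Log2 fold change of each factor in Tbx20EH1Mut over wild-type hearts with its standard error, the range over fits without 1 library (grey bar) and the estimate with foregut marker level as a covariate (cross). All points and grey bars lie right of 0, whereas the crosses of *Six2* (-1.79) and *Eya1* (-1.07) lie left of it.

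Divided by exon length, levels can be ordered between genes. In wild-type hearts *Foxc2* stood first at 13.9 ± 1.41 CPM per kilobase (SD, n = 4), followed by *Isl1* (5.0 ± 1.68), *Osr1* (3.86 ± 0.395) and *Foxc1* (3.48 ± 0.315). Below them came *Foxf1* (1.16 ± 1.31), *Tshz2* (0.573 ± 0.265), *Six2* (0.327 ± 0.437) and *Eya1* (0.305 ± 0.265). Of neighbours in this order, *Foxc2* and *Isl1* did not overlap between libraries, nor did *Foxc1* and *Foxf1*, and the other neighbours did. In Tbx20EH1Mut hearts *Isl1* came first at 30.3 ± 10.1 CPM per kilobase, with *Foxc2* (24.7 ± 3.59) overlapping it. *Osr1* (11.1 ± 6.41), *Foxf1* (6.57 ± 4.66), *Foxc1* (6.39 ± 1.15) and *Tshz2* (5.98 ± 2.15) formed an overlapping middle range. *Six2* (1.82 ± 2.05) and *Eya1* (0.630 ± 0.405) stayed last, each overlapping its neighbour.

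The 8 factors did not vary alike between Tbx20EH1Mut libraries. Replicate 1 was the highest for *Osr1*, *Six2*, *Eya1*, *Foxc1* and *Foxf1*, and replicate 3 was the highest for *Isl1*, *Foxc2* and *Tshz2*. *Six2*, *Eya1*, *Foxc1* and *Foxf1* had the same order of libraries, replicate 1, then 2, 4 and 3, which was also the order of the summed foregut markers (449, 376, 311 and 226 CPM). These 4 genes were also highest in wild-type replicate 2, the wild-type library with the most foregut RNA. *Isl1* and *Tshz2* shared another order, replicate 3, then 4, 1 and 2. The highest Tbx20EH1Mut library exceeded the lowest 27.9-fold for *Six2*, 4.03-fold for *Osr1*, 3.94-fold for *Eya1* and 3.60-fold for *Foxf1*. The same ratio was 2.53 for *Tshz2*, 2.19 for *Isl1*, 1.46 for *Foxc1* and 1.34 for *Foxc2*. The closest pairs of factors over the 8 libraries were *Foxc1* with *Foxc2* and *Isl1* with *Tshz2*, whose centred log2 levels differed by 0.325 and 0.444 (root mean square). *Six2* and *Tshz2* were farthest apart, at 1.77. These distances span both genotypes, so genes with similar fold changes come out close. Within the Tbx20EH1Mut libraries *Foxc1* and *Foxc2* had opposite orders, replicates 1, 2, 4 and 3 against 3, 4, 2 and 1.

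**Figure D3:**
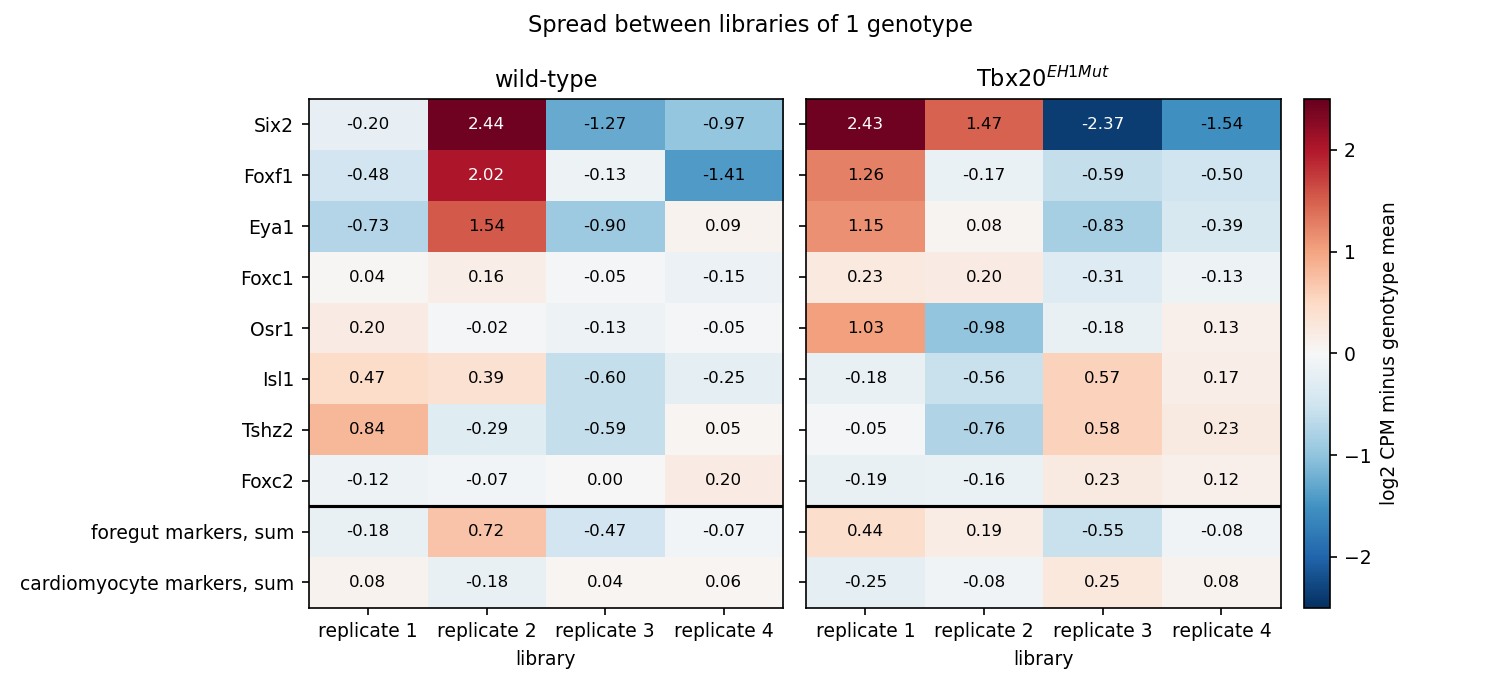
Deviation of each library from its genotype's mean log2 CPM for the 8 factors and for the summed markers of foregut epithelium and heart muscle, with 1 cell per gene and library. *Six2*, *Eya1* and *Foxf1* deviate upwards in wild-type replicate 2 and Tbx20EH1Mut replicate 1, the libraries with the highest foregut sums (133 and 449 CPM). *Isl1* lies above its mean in the former and below it in the latter, and *Tshz2* lies below its mean in the former and near it in the latter.

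Other genes of the progenitor programmes were followed in lists of anterior and posterior second heart field genes. Over all tested genes, 12.5% were called higher and 12.1% lower. Of 8 anterior genes, 3 rose, 1 fell and 4 were not called, with a median log2 fold change of 1.19. Leaving out wild-type replicate 2 gave 4 that rose. *Fgf8*, a growth factor that keeps progenitors proliferating, was at 11.0, 13.9, 10.5 and 11.9 CPM in the wild-type and at 75.2, 68.3, 101 and 83.7 CPM in the Tbx20EH1Mut libraries, far apart (log2 fold change 2.80, edgeR adjusted p = 9.7e-06). *Fgf10*, a ligand of the same family, went from 8.15 ± 1.62 to 43.1 ± 16.9 CPM (SD, n = 4 each, log2 fold change 2.40, edgeR adjusted p = 2.86e-04). *Prdm1*, which encodes a transcriptional repressor, also rose (2.16, edgeR adjusted p = 0.00708). *Foxh1*, a forkhead partner of Smad proteins, fell from 28.3 ± 10.2 to 11.8 ± 2.17 CPM (log2 fold change -1.27, edgeR adjusted p = 0.00639). Among those not called were *Tbx1* (1.30), *Mef2c* (0.13) and *Hand2* (-0.29).

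Of 9 posterior genes, 4 rose and 3 fell, with a median of 0.72. Among the risers were *Hoxb1* (3.65), a homeobox gene induced by retinoic acid, *Aldh1a2* (1.35), which encodes an enzyme of retinoic acid synthesis, and the nuclear receptor gene *Nr2f2* (0.72). The fallers were the ligand gene *Wnt2* (-1.63), the T-box gene *Tbx5* (-0.80) and the Wnt antagonist gene *Sfrp5* (-0.70). *Aldh1a2* was at 3.55, 4.52, 2.33 and 1.88 CPM in the wild-type and at 16.2, 5.74, 3.81 and 5.43 CPM in the Tbx20EH1Mut libraries, so the genotypes overlapped and replicate 1 stood highest. It was near the threshold (edgeR adjusted p = 0.0498), was 0.71 and not called without Tbx20EH1Mut replicate 1 (adjusted p = 0.141), and was 0.97 without both that library and wild-type replicate 2 (adjusted p = 0.0633). *Sfrp5* also lost its call without wild-type replicate 2 (-0.66, edgeR adjusted p = 0.0782), without Tbx20EH1Mut replicate 1 (-0.58, adjusted p = 0.0955) and without both (-0.55, adjusted p = 0.158). With the foregut covariate 2 of the 9 genes were called higher, and *Hoxb1* (1.93) and *Aldh1a2* (0.04) were not among them.

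Partners and relatives of the 8 factors were followed in 5 further lists. Hedgehog signalling acts upstream of *Foxf1* and *Osr1*. Of its 12 genes 2 rose, with a median of 0.21, a share near the 12.5% of all tested genes called higher. The ligand gene *Shh* was at 0.516, 4.03, 0.0398 and 0.655 CPM in wild-type and at 23.9, 10.3, 7.85 and 17.4 CPM in Tbx20EH1Mut libraries, again highest in wild-type replicate 2 and Tbx20EH1Mut replicate 1 (log2 fold change 3.48, edgeR adjusted p = 0.0170). Without both libraries it was 4.92, and with the foregut covariate it was 1.25 and not called. *Shh* is also one of the foregut markers. The pathway's feedback inhibitor gene *Hhip* had a log2 fold change of 2.38 (edgeR adjusted p = 0.0181), which lost its call without Tbx20EH1Mut replicate 1 (1.87, adjusted p = 0.0512) but kept it without both libraries (2.77), and the target *Gli1* was not called. Leaving out wild-type replicate 2, alone or with Tbx20EH1Mut replicate 1, raised the number of Hedgehog genes called higher to 5. It was 1 without wild-type replicate 3 or Tbx20EH1Mut replicate 1, and 0 without wild-type replicate 4 or with the foregut covariate, which also gave 5 Hedgehog genes called lower against none without it.

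LIM homeodomain factors such as Isl1 work in complexes bridged by Ldb proteins and held by Ssbp proteins. Of 7 such genes, *Ldb2* rose from 5.49 ± 0.718 to 14.9 ± 2.55 CPM (SD, n = 4 each, log2 fold change 1.44, edgeR adjusted p = 4.63e-04) and *Ssbp2* rose by 0.51 (edgeR adjusted p = 0.0173), which was 0.47 and under the fold threshold without wild-type replicate 2, where another gene of the list was called instead. The other 5 were not called, and none of the 7 was called lower. Only 1 of the 7 was called higher without wild-type replicate 4, without Tbx20EH1Mut replicate 4 or without scaling factors.

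Of 10 other genes of the Six2, Eya1 and Dach1 families, 8 were tested and only *Dach1*, which encodes a cofactor of Six2-type proteins, was called. This is no larger a share than the 12.5% of all tested genes called higher. *Dach1* went from 30.9 ± 3.65 to 61.0 ± 12.1 CPM (SD, n = 4 each, log2 fold change 0.98, edgeR adjusted p = 0.00205). *Eya2* (2.57) and *Eya4* (-1.81) had large estimates that did not pass the test, with edgeR adjusted p = 0.113 and 0.0759. Without wild-type replicate 2, and without both that library and Tbx20EH1Mut replicate 1, 2 of these genes were called higher instead of 1. Of the relatives of *Osr1* and *Tshz2*, *Tshz3* rose from 2.63 ± 0.665 to 7.36 ± 1.62 CPM (log2 fold change 1.48, edgeR adjusted p = 0.00277). *Osr2* (-1.46) and *Tshz1* (0.55) were not called. Without wild-type replicate 1, or without Tbx20EH1Mut replicate 2, 2 of these relatives were called higher. With DESeq2, with limma-voom or without Tbx20EH1Mut replicate 3, 1 of them was called lower.

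*Foxf1* and *Foxc2* share their cluster on chromosome 8 with *Foxl1* and with *Fendrr*, a long non-coding RNA gene that is read away from *Foxf1* on the opposite strand and lies 1276 bases from it. *Fendrr* was at 0.546, 1.24, 0.120 and 0.240 CPM in wild-type and at 12.0, 3.03, 2.44 and 3.63 CPM in Tbx20EH1Mut libraries. Like *Foxf1*, it was highest in wild-type replicate 2 and Tbx20EH1Mut replicate 1, and the genotypes did not overlap (log2 fold change 3.29, edgeR adjusted p = 0.0100). It was 2.5 without Tbx20EH1Mut replicate 1 and 3.38 without both libraries, called each time, and 1.16 and not called with the foregut covariate. *Foxl1*, 9045 bases beyond *Foxc2*, rose by 1.75 (edgeR adjusted p = 0.00611), and was 0.69 and not called with the foregut covariate. Near *Foxc1* on chromosome 13, *Foxq1* rose by 1.31 (edgeR adjusted p = 0.0293), a call lost without wild-type replicate 2 (1.17, adjusted p = 0.0702) and without both libraries (1.34, adjusted p = 0.0557), while *Foxf2* was not called (0.98, adjusted p = 0.159). Over all these lists, 16 of 49 tested genes were called higher and 4 lower, and the median log2 fold change was 0.49. The shares over all tested genes were 12.5% higher and 12.1% lower.

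**Figure D4:**
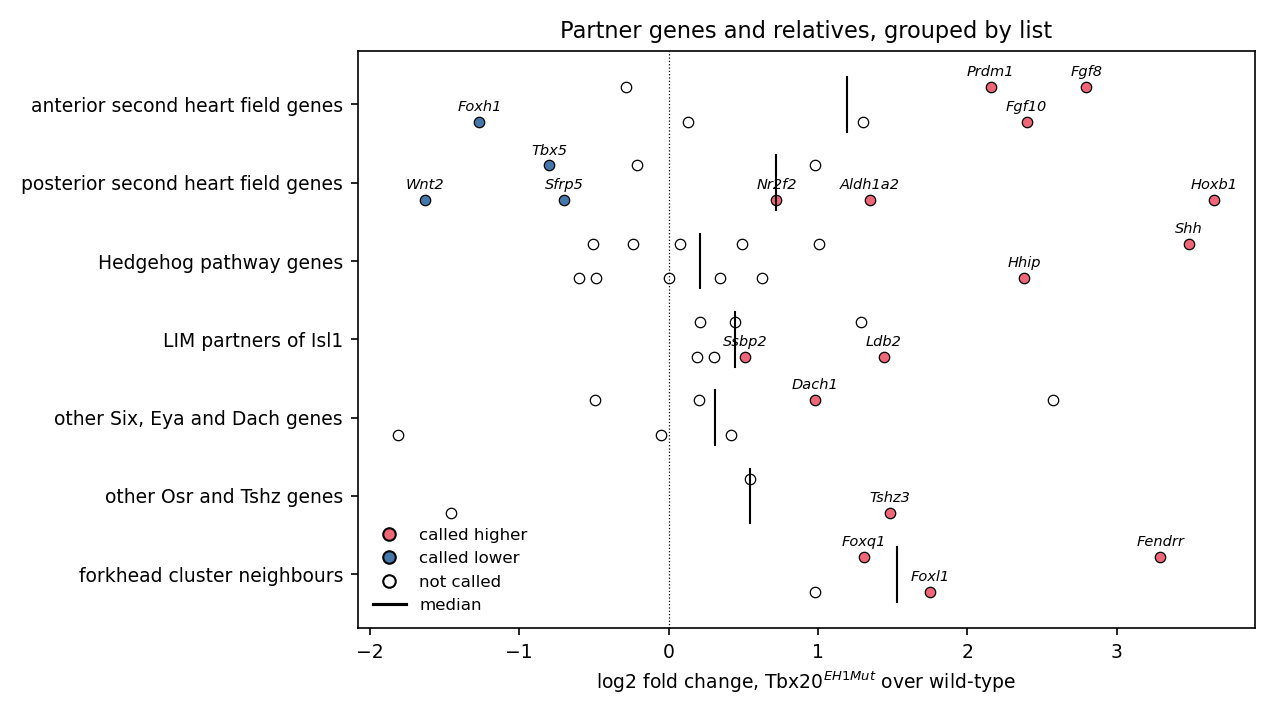
Log2 fold change in Tbx20EH1Mut over wild-type hearts of tested genes in the 7 lists of progenitor genes, partners, relatives and cluster neighbours, with called genes named and a bar at the median of each whole list. Some genes of the lists are not drawn. Called genes lie on both sides of 0 in the anterior and posterior lists, from *Wnt2* (-1.63) to *Hoxb1* (3.65), and on the right only in the other 5.

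Among other tissues that heart dissections can include, markers of liver, somite, neural crest, intermediate mesoderm, pharyngeal muscle and proepicardium had summed levels that overlapped between genotypes, and the somite marker *Uncx* had 0 counts in every library. Sinus venosus markers were lower in all Tbx20EH1Mut libraries (97.0 to 131 against 139 to 209 CPM), but overlapped without the most abundant one, *Hcn4* (57.8 to 71.4 against 67.6 to 126 CPM). Erythroid markers were lower with and without their most abundant gene, *Hbb-y* (318 to 1024 against 1754 to 4588 CPM for the whole sum). The part of these differences in the levels of the 8 factors was not tested.

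For each called factor, the genes with the most similar profile over the 8 libraries were found among the 10500 genes that averaged 5 CPM or more, by the root mean square difference of centred log2 levels. *Camk2n1* (0.244) and *Rora* (0.263) were nearest to *Isl1*, and *Depp1* (0.282) and *Cox4i2* (0.310) to *Tshz2*. *Acrbp* (0.311) and *Tpbg* (0.349) were nearest to *Osr1*. *Prdm1* (0.557), of the anterior list, was among those nearest to *Foxf1*. *Foxc1* and *Foxc2* had much closer neighbours, *Pfkl* (0.0857) and *Nedd9* (0.0948) for the former and *Armcx1* (0.0961) and *Klhl7* (0.0969) for the latter. Distances are smaller for genes whose levels change less, and genes within 1 set of libraries are not independent.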

How the data were processed

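Hearts of 4 wild-type and 4 Tbx20EH1Mut pools were profiled. The authors deposited unnormalized counts per Ensembl gene, 1 table per library. The submitters' processing notes name Trimmomatic 0.36, STAR 2.5.2b and GRCm38/mm10, and the counting tool and strand setting are not given in the sources used here. Symbols came from GENCODE M21 and were matched for 48970 genes.

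The test was edgeR 4.0.16 in R 4.3.3 (filterByExpr, TMM, quasi-likelihood test, genotype as the only term), with Benjamini-Hochberg adjustment over 17163 genes. CPM used TMM-scaled library sizes. Profiles were compared as log2(CPM + 0.5). Levels and tables were handled in Python 3.11.15, numpy 2.4.6, pandas 2.3.3 and matplotlib 3.10.9.

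The genes named are the 8 factors, the called genes of the lists and, for each called factor, the 2 most similar genes. *Eya2*, *Eya4*, *Osr2*, *Tshz1*, *Foxf2*, *Gli1*, *Mnx1*, *Olig2*, *Lhx3*, *Pax6*, *Barx1* and uncalled anterior genes were named after their values were seen. Some genes of the lists are not reported here. The 8 factors and all lists were chosen with earlier results of these data known.

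Alternatives were RLE, upper-quartile or no scaling factors, DESeq2 1.42.0, limma-voom (limma 3.58.1), other filters, other fold thresholds, a replicate block, the foregut marker level as a covariate and leaving out each library. Leaving out 1 library of each genotype was added after seeing the data. Counts of 16988 genes were simulated for this comparison, with 200 genes changed and the same dispersion (spread between libraries, 0.0707) for every gene. Of genes changed by log2 2, 100% were recovered, and of those raised by log2 1, 52%. Unchanged genes made up 1.96% of calls. These rates need not hold for genes that vary more between libraries, as several of the factors did.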

Additional observations from a re-analysis of the deposited data

Results flagged for a closer look

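In 3 of the 16 groups of 4 libraries examined, 2 per factor, the highest library stood apart from the others. Its gap over the range, on the linear CPM scale, was above Dixon's 95% critical value. Chance exceeds that value in about 1 of 20 independent groups of normally distributed values. The 16 groups come from the same 8 libraries and normality was not tested, so the 3 groups cannot be set against that rate. *Six2* was at 2.08 CPM in wild-type replicate 2 (gap over range 0.909). *Foxf1* was at 7.52 CPM in the same library (0.854). *Foxf1* was at 32.6 CPM in Tbx20EH1Mut replicate 1 (0.871). These libraries also had the highest foregut marker sum of their genotype, 133 and 449 CPM, and the part of foregut tissue in these values was not tested.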

How the results depend on the processing

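The number of factors called higher was 6 in most fits, 5 with DESeq2, which gave no adjusted p for *Foxf1*, 4 with the fold threshold at log2 1, 7 without both wild-type replicate 2 and Tbx20EH1Mut replicate 1, and 3 (*Isl1*, *Foxc2* and *Tshz2*) with the foregut covariate. Fits without 1 library gave 5 to 8, 8 being without wild-type replicate 2. Of all genes in those fits, 7.8% to 16.7% were called higher, and 10.8% without wild-type replicate 2. This share was 15.1% with DESeq2 and 9.5% without both wild-type replicate 2 and Tbx20EH1Mut replicate 1. With the covariate, *Osr1* (1.14), *Foxc1* (0.515) and *Foxf1* (0.628) lost their calls, *Six2* (-1.79) and *Eya1* (-1.07) changed sign, and of 49 tested genes of the other lists 11 instead of 16 were called higher and 11 instead of 4 lower. Over all genes the covariate raised calls of a rise from 12.5% to 18% and of a fall from 12.1% to 19.7%. The covariate, the mean log2 level of the foregut markers, was higher in Tbx20EH1Mut libraries (2.65 to 4.76) than in wild-type libraries (0.16 to 2.97), with an overlap between Tbx20EH1Mut replicate 3 and wild-type replicate 2. With the fold threshold at log2 1, 2 genes of those lists were lower. *Eya1* passed at 1.33 without both libraries. Without 1 library, *Six2* ranged from 1.5 to 4.10, *Eya1* from 0.517 to 1.86 and *Foxf1* from 1.87 to 3.68. In each case the cause was not tested.

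Replicate numbers are shared between the genotypes, but same-numbered libraries did not deviate together (correlations -0.354, 0.38, 0.077 and 0.075), so the numbers were not taken as pairs. With a replicate block *Six2* passed at 2.18 (edgeR adjusted p = 0.0496), 7 factors were called, and calls over all genes were 1910 higher and 1771 lower against 2148 and 2070. Upper-quartile scaling moved that split to 2516 and 1566 and the median of all genes by 0.085, and the same 6 factors were called. Calls of genes raised over all genes ran from 1375 to 2948 in the fits without 1 library. Fold changes of *Six2*, with 8 counts in its lowest library, were the least precise.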

Other observations

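The 2 factors that were not called had close neighbours of their own over the 8 libraries, looked up after their values were seen. *Tbx1*, a T-box gene of pharyngeal and anterior progenitors, was nearest to *Six2* (root mean square difference 0.439). It was at 1.49, 12.7, 1.67 and 2.10 CPM in the wild-type libraries and at 29.2, 9.0, 2.72 and 3.45 CPM in the Tbx20EH1Mut libraries (replicates 1 to 4 of each). *Gli1*, a direct target of Hedgehog signalling, was nearest to *Eya1* (0.137), at 2.0, 9.13, 1.91 and 3.19 CPM in wild-type and 17.7, 5.87, 4.0 and 5.14 CPM in Tbx20EH1Mut libraries. Both genes were highest in wild-type replicate 2 and Tbx20EH1Mut replicate 1 of their genotypes, as *Six2* and *Eya1* were.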
